A study of Mus musculus and Canis lupus familiaris and Equus caballus with 9 samples.

Results

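The NRSF peaks described here are the mouse peaks that lie deep inside genes: the midpoint of each is inside the span of a protein-coding gene and more than 10 kb from the annotated start or end of every gene of the RefSeq GRCm38.p6 table. They number 481 of the 2357 peaks of the mouse list (20.4%, exact 95% interval 18.8 to 22.1%). NRSF (also called REST) was immunoprecipitated from RAW264.7 cells, an established macrophage line of BALB/c origin at passages 13 to 15, in 2 samples, and 1 further sample was input DNA. Cells were fixed with 1% formaldehyde, and libraries held fragments of 200 to 300 bp. The labels name no treatment or engineered allele, and peak positions give no check of the labelled cell type. One deposited list belongs to both immunoprecipitated samples and gives only a chromosome, a start and an end for each peak, each 400 bp wide. It has no value per sample, height or p-value, so replicate error cannot be given, read depth is unknown, and every interval below is an exact 95% interval that covers counting error only.

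NRSF is a zinc-finger repressor that recognises a long DNA element, RE1 (also called NRSE), made of a left and a right arm that are normally set a few bases apart. It recruits histone deacetylases and demethylases through the corepressors CoREST and SIN3 and is known for keeping neuronal genes silent in other cells. RE1 elements are found in introns as well as at promoters, and neuronal genes, especially those of channels and of synaptic adhesion, are often very long, so gene length bears directly on how many peaks a gene can hold.

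Only a few deep peaks lay at a transcription start listed inside the gene, and these are the deep peaks for which sequence can be shown. Of the 469 deep peaks on chromosomes with listed starts, 5 had their midpoint within 500 bp of one, and 14 within 5 kb. Starts were listed for only 295 of the 382 host genes, so both counts are lower limits. The 5, named after their values were seen, lay in Sptbn4, encoding the beta-IV spectrin of axon initial segments, Stag1, a cohesin subunit, Oprm1, the mu-opioid receptor, Fgf12, an intracellular modulator of sodium channels, and Kcnip1, a Kv4 potassium channel partner. Their midpoints were 92, 103, 289, 345 and 387 bp from the listed start, in that order. Per length, the deep sequence within 500 bp of a listed start held 4.51 peaks per Mb (interval 1.47 to 10.5), compared with 0.762 per Mb in all deep sequence. For 2 of the 5, the 300-base RefSeq promoter window (250 bases before the start to 50 after it) overlapped the peak. Both windows are printed 5′ to 3′ on the strand of the gene, because each holds an internal start that a deep peak overlaps; the joined RE1 cores were in the Sptbn4 window alone. Capitals mark matches, on either strand, to AGCACCNNGGACAG, the cores of both RE1 arms with 2 bases between them, or to the 7-base arm cores CAGCACC and GGACAGC, which overlap it.
Sptbn4, chr7:27396149-27396448, minus strand (GRCm38.p6): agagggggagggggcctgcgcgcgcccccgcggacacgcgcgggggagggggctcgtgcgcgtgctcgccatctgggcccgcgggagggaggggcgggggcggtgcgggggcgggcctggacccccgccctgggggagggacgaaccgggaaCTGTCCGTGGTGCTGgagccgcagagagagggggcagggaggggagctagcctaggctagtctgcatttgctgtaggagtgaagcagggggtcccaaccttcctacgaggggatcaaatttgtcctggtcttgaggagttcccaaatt
Stag1, chr9:100643198-100643497, plus strand (GRCm38.p6): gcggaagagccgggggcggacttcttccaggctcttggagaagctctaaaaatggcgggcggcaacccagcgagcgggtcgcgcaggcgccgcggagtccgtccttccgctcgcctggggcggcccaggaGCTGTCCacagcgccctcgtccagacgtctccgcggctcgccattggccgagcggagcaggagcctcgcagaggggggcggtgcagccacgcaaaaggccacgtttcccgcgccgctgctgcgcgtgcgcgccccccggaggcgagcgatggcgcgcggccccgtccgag
The Sptbn4 window held the joined cores as a reverse complement. The 15 capital bases run from 27396282 to 27396296 on chromosome 7, and their centre was 1 bp from the midpoint of the peak at 27396090 to 27396490. This peak stood 39907 bp from the closest gene end, 56.3% of the way along Sptbn4. The Stag1 window held only the right core, 14 bp from the midpoint of its peak at 100643145 to 100643545 on chromosome 9. Among the 145 listed windows that overlapped any mouse peak, 10 held the joined cores (6.9%), against 17 of all 32851 windows (0.0517%). The left core CAGCACC was in 23.4% of the windows at a peak and 7.14% of all windows, and the right core GGACAGC in 31.7% of those at a peak and 6.56% of all.

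Deep peaks were sparser than peaks at gene ends and denser than peaks between genes. Sequence inside protein-coding genes and over 10 kb from any gene end, called deep sequence here, amounted to 631 Mb and held 0.762 peaks per Mb (interval 0.695 to 0.833). Intergenic sequence at the same minimum distance from gene ends held 504 peaks in 1021.5 Mb, or 0.493 per Mb (0.451 to 0.538). The deep density was 1.54 times the intergenic one (interval 1.36 to 1.75, exact conditional binomial test, two-sided, p = 1.22e-11, adjusted over 5 tests p = 6.08e-11). Sequence within 10 kb of a gene end held 1314 peaks, or 1.35 per Mb. A further 58 peaks lay over 10 kb from any end inside genes that are not protein-coding, at 0.78 per Mb (0.592 to 1.01), so a density above the intergenic value was not seen in protein-coding genes alone. Assembly gaps and mappability differ between these kinds of sequence, and their part in the ratio was not tested.

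Moving each peak by 200 kb gave a second comparison. Of the 2357 peaks, 481 were deep, against 612 of the moved windows. For 276 peaks the peak alone was deep and for 407 the window alone (exact sign test, two-sided, p = 6.07e-07, adjusted over 5 tests p = 1.52e-06). The list as a whole was thus placed less often in deep sequence than windows 200 kb away, while within the sequence far from gene ends peaks were denser inside genes.

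The deep peaks lay in 382 genes out of 9205 that have deep sequence (4.15%). The median length of the 382 hosts was 173.5 kb, against 51.2 kb for the genes with deep sequence and no deep peak. This difference follows in part from the amount of deep sequence that each gene offers, so densities are given per Mb of it. The shortest host was 26.0 kb and the longest, Dlg2, the postsynaptic scaffold PSD-93, was 1973 kb.

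Peak density was nearly level over gene length up to 500 kb and lower in the longest genes. Genes under 50 kb held 41 deep peaks at 0.889 per Mb of their deep sequence (interval 0.638 to 1.21), and those of 50 to 100 kb held 89 at 0.880 per Mb. The density was 0.757 per Mb with 102 peaks at 100 to 200 kb and 0.858 per Mb with 157 peaks at 200 to 500 kb. Genes of 500 kb or longer held 92 deep peaks at 0.553 per Mb (0.445 to 0.678). Over the same 5 classes the share of genes with a deep peak went the other way, at 0.851%, 3.35%, 6.47%, 14.8% and 26.5%. Longer genes were hosts more often while their deep sequence was not denser in peaks.

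**Figure D1:**
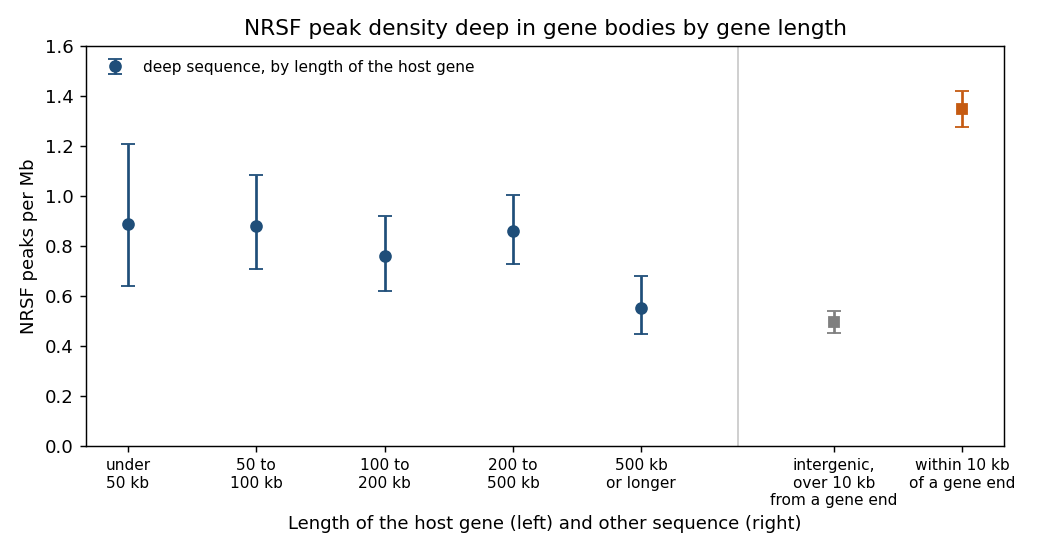
NRSF peaks per Mb (vertical axis) in the deep sequence of genes of 5 length classes and, right of the line, in intergenic sequence over 10 kb from a gene end and within 10 kb of a gene end; bars are exact Poisson 95% intervals. The class of 500 kb or longer sits at 0.553 per Mb, close to the intergenic 0.493, and the shorter classes between 0.757 and 0.889.

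With the limit set at 200 kb, the density in longer genes was 0.866 times that in shorter ones (249 peaks in 349.5 Mb against 232 in 281.9 Mb, interval 0.721 to 1.04, exact conditional binomial test, p = 0.119, adjusted over 5 tests p = 0.198). With a limit of 500 kb, chosen after the classes were seen, the ratio was 0.661 (0.52 to 0.831, exact p = 0.000232). On autosomes alone the 500 kb ratio was 0.685 (exact p = 0.000939). Each chromosome's own deep density was also applied to its genes of 500 kb or longer. This gave 123.1 peaks in place of the 92 counted, a ratio of 0.747 (interval 0.602 to 0.916). That density includes the genes of 500 kb or longer themselves. The ratio of 0.747 is therefore not on the same basis as 0.661 and 0.685, which compare with shorter genes only. The 3 longest genes with no deep peak were Dmd, encoding dystrophin, with 2390 kb, Ptprd, a receptor tyrosine phosphatase of synapses, with 2271 kb, and Cntnap2, a cell adhesion molecule of myelinated axons, with 2241 kb. Of these, Cntnap2 did have a peak within 10 kb of one of its own ends.

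The distance of a deep peak to the closest end of any gene ran from 10.0 kb to 481.5 kb, with a median of 33.1 kb and quartiles of 17.9 and 61.1 kb. In 159 peaks (33.1%) it exceeded 50 kb, and in 55 (11.4%) it exceeded 100 kb. The peak farthest from any gene end was in Rbfox1, a neuronal splicing factor, on chromosome 16 at 6930795 to 6931195 and 481.5 kb from an end. Ctnna3, an alpha-catenin, held the next 2, at 395.0 and 328.35 kb, on chromosome 10. They were followed by a peak in Dpp6 on chromosome 5, 321.6 kb from an end, and one in Tmem132d, encoding a transmembrane protein, 289.3 kb from an end. Just inside the 10 kb limit were peaks in Mei1 at 10016 bp and in Dmxl1 at 10018 bp. Just outside it were peaks in Lingo1 at 9905 bp and in Zfp985 at 9801 bp.

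Relative position in the host was counted along its deep sequence only, so that the 10 kb limit did not shape it. In the middle 33.3% of that sequence lay 172 of the 481 peaks (35.8%, interval 31.5 to 40.2%), against an even spread (exact binomial test, two-sided, p = 0.266, adjusted over 5 tests p = 0.333). By gene length the share was 24.4% under 50 kb (10 of 41 peaks) and 44.9% at 50 to 100 kb (40 of 89). It was 35.3% at 100 to 200 kb (36 of 102), 36.9% at 200 to 500 kb (58 of 157) and 30.4% at 500 kb or longer (28 of 92). The shares had no steady order. They were not tested by class and no intervals were computed for them, so a departure from an even spread within 1 class, such as 50 to 100 kb, was not examined. Strand could be read from the RefSeq promoter table for 295 hosts with 369 deep peaks. Of these 369, 184 lay in the part nearer to the start (49.9%, interval 44.6 to 55.1%, exact binomial test against 50%, p = 1). Over 10 equal bins from the 5′ end the shares ran between 7.32% in the last bin and 13.0% in bin 7, and each interval included 10%. Counted over the whole gene, the median position was 49.7% of the length from the 5′ end, with quartiles of 28.5 and 67.0%. A preference for either side of the gene larger than these intervals allow was not seen. Exons and introns were not used here, so peaks could not be placed in first or later introns.

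**Figure D2:**
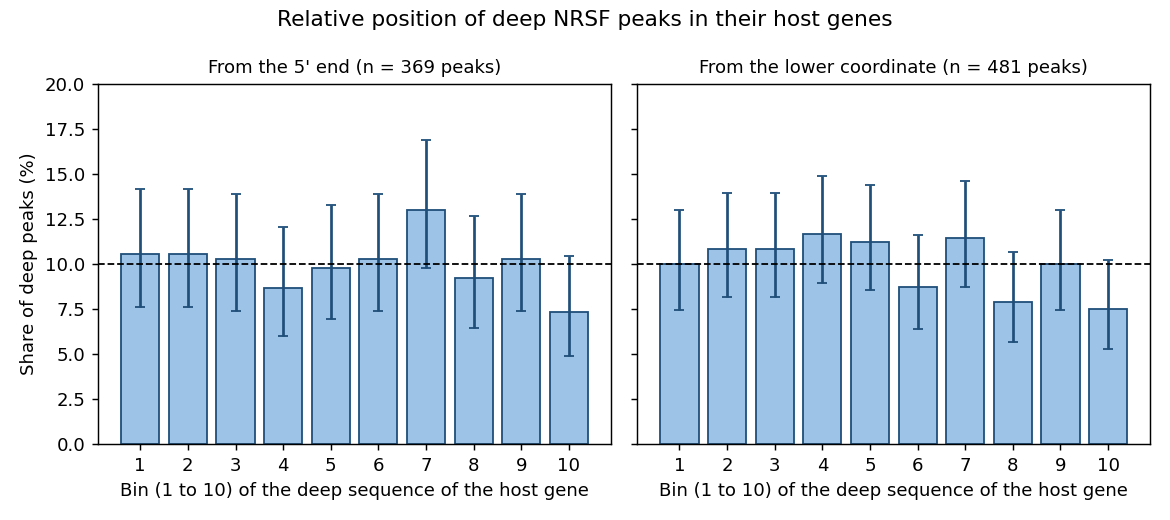
Share of deep peaks in each of 10 equal bins of the deep sequence of their host gene, from the 5′ end for the 369 peaks with a known strand (left) and from the lower coordinate for all 481 (right); bars are exact 95% intervals and the dashed line is an even spread of 10%. From the 5′ end every interval takes in the line.

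Most hosts held a single deep peak: 318 of the 382 had 1, 43 had 2, 13 had 3 and 8 had 4 or more, namely 5 with 4 and 1 each with 5, 6 and 7. The 64 hosts with more than 1 deep peak held 163 of the 481 (33.9%). Between consecutive deep peaks of 1 host the gap had a median of 44.8 kb over 99 gaps and ran from 0.49 to 507.1 kb, and 19 gaps were at most 10 kb. Deep peaks as a group had another peak within 10 kb in 40 of 481 cases (8.32%, interval 6.01 to 11.2%), compared with 12.6% of the peaks at gene ends and 9.13% of the intergenic ones.

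Rbfox3, which encodes the neuronal nuclear antigen NeuN, a splicing factor, held the most, with 7 deep peaks in 422 kb on chromosome 11. All 7 lay in the part of the gene away from its start, at 224.4, 226.0, 252.1, 308.3, 326.6, 355.7 and 370.8 kb from the 5′ end. Dpp6, an auxiliary subunit of Kv4 potassium channels, held 6 in 910 kb on chromosome 5. These ran from 77.2 to 548.8 kb from the 5′ end. One further peak in the span stood within 10 kb of an end of another gene, and Dpp6 also had a peak within 10 kb of an own end. Atp2b2, a plasma membrane calcium pump of neurons and hair cells, held 5 in 299 kb on chromosome 6, between 79.6 and 199.2 kb from the 5′ end. Per Mb of deep sequence Atp2b2 had 19.3 deep peaks, Rbfox3 18.7 and Dpp6 7.23, against 0.762 over all genes. These genes were picked for their counts, so the densities describe them and are not tests.

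With 4 deep peaks each came Zfp993, Trappc9, Camta1, Asic2 and Anks1b. Camta1, a calmodulin-binding transcription activator, had 1 pair 97.6 and 102.5 kb from its 5′ end and single peaks at 256.6 and 572.8 kb. Of the 7 peaks in its span, those at 675.1, 675.8 and 699.7 kb stood within 10 kb of an end of another gene. Asic2, an acid-sensing sodium channel, had its 4 between 481.9 and 962.4 kb in a gene of 1088 kb, and also a peak at an own end. Anks1b, a postsynaptic protein, had 1 peak at 503.9 kb and 3 between 950.7 and 1008 kb in a gene of 1100 kb. Trappc9, a trafficking complex subunit, had 2 peaks 48.1 and 49.5 kb from its end of lower coordinate, and others at 100.4 and 437.3 kb. Zfp993 lies in a block of zinc-finger genes on chromosome 4 where the list is dense: 10 peaks fell in its span, 4 of them deep. The 4 formed close pairs, at 145.0 and 145.5 kb and at 289.8 and 290.3 kb from the 5′ end. The sources used here do not say how reads that match several copies of such a family were placed, so these 4 peaks are uncertain.

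**Figure D3:**
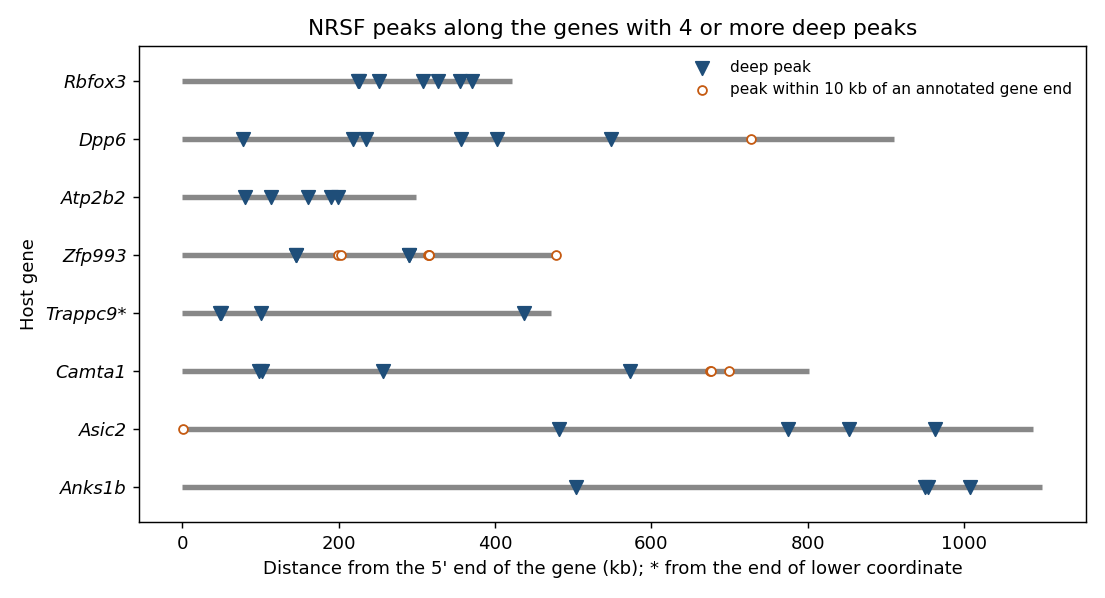
Distance from the 5′ end (kb, horizontal axis; from the end of lower coordinate for Trappc9) of the peaks inside each of the 8 genes with 4 or more deep peaks; grey lines are the genes to scale, filled triangles deep peaks and open circles peaks within 10 kb of a gene end. The 7 deep peaks of Rbfox3 lie between 224.4 and 370.8 kb of its 422 kb.

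The 13 hosts with 3 deep peaks differed widely in length and spacing. The densest that the naming rule reached was Gm9495, a predicted gene of 33.4 kb, whose 3 peaks fell in 13.4 kb of deep sequence, 14.3 to 22.4 kb from the 5′ end. Whether reads at Gm9495 match several places in the genome was not checked. Srrm4, a neuron-specific splicing regulator that NRSF is known to repress, had its 3 at 38.4, 46.6 and 74.3 kb from the 5′ end in a gene of 153 kb and a further peak at an own end. Cacna1a, the pore subunit of P/Q-type calcium channels, had 3 within 16.7 kb of each other, 116.1, 130.7 and 132.8 kb from its end of lower coordinate. Tll2, a metalloprotease, had 3 between 18.9 and 71.0 kb from the 5′ end, and Xkr6, of the XK-related family, had 3 between 75.2 and 152.0 kb from its end of lower coordinate. Efcab6, an EF-hand protein, and Nek11, a kinase, each had 3 in genes of 208 and 233 kb.

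Gene lists drawn up from general knowledge, with earlier results of these data known, were described by their counts. Of the 249 genes in 8 neuronal lists, 234 had deep sequence, and 51 of these had a deep peak (21.8%, interval 16.7 to 27.6%), beside 4.15% of all genes with deep sequence. Their median length was 279 kb, so per length the gap was smaller: 77 deep peaks in 80.0 Mb, or 0.963 per Mb (0.76 to 1.2), beside 0.762 for all genes. At the density of all genes of the same length classes these lists would hold 53.0 deep peaks, a ratio of 1.45. Without Rbfox3, which alone gave 7, the density was 0.879 per Mb and the ratio 1.33.

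The list of neuronal transcription and RNA-binding factors had the highest density, 18 deep peaks in 6 of 28 genes or 2.1 per Mb (1.24 to 3.31). Rbfox3 with 7 and Camta1 with 4 made up most of it, followed by 2 each in Rbfox1, in St18, a zinc-finger factor, and in Celf4, an RNA-binding protein. Without Rbfox3 the density of the list was 1.34 per Mb. The list of presynaptic release and scaffold proteins had 10 deep peaks in 9 of 30 genes, 1.59 per Mb (0.764 to 2.93). Cadps, a priming factor of dense-core vesicles, had 2, the deepest 116.5 kb from a gene end. Amph, encoding amphiphysin, Nsf, the ATPase that takes SNARE complexes apart, and Dnm3, a dynamin, had 1 each. Postsynaptic scaffold and signalling proteins had 12 in 9 of 28 genes, 1.15 per Mb (0.594 to 2.01). After Anks1b with 4, Kalrn, a guanine nucleotide exchange factor of dendritic spines, Agap1, an Arf GTPase-activating protein, and Shank2, a master scaffold, had 1 each, 172.8, 98.2 and 70.9 kb from a gene end.

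Glutamate receptors and AMPA receptor auxiliary subunits had 10 deep peaks in 7 of 27 genes, 1.18 per Mb (0.568 to 2.18). Grik4, a kainate receptor subunit, had 2 with the deeper 125.6 kb from a gene end, Grm8, a metabotropic receptor, had 2, Cacng2, the AMPA receptor regulator stargazin, had 2 and Grm4, another metabotropic receptor, had 1. The list of voltage-gated ion channels and their partners had 10 in 6 of 30 genes, 1.12 per Mb (0.538 to 2.06). Besides Cacna1a with 3, Kcnip1 had 2, Kcnh1, a channel of the EAG family, had 2 and Kcnma1, the large-conductance calcium-activated potassium channel, had 1. This list is partial, and its density describes the list and not the whole class. Dpp6 with 6 deep peaks, and Kcnd3 and Scn10a with 2 each, are not on it. They were named for their counts, and other channel genes off the list, with fewer deep peaks or none, were not counted. Receptors for GABA, glycine, acetylcholine and monoamines had 1 deep peak in 27 genes, or 0.274 per Mb (0.00693 to 1.53).

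The lists of axon guidance and of synaptic adhesion proteins had densities below the 0.762 per Mb of all genes. Axon guidance genes, with a median length of 299.5 kb, had 7 deep peaks in 6 of 32 genes, 0.67 per Mb (0.269 to 1.38), an interval that takes in the value of all genes. There were 2 in Unc5d, a netrin receptor, and 1 each in Ephb1, an ephrin receptor, Ntng1, a netrin-related ligand, and Slit1, a ligand of Robo receptors. Synaptic adhesion molecules had 9 in 7 of 32 genes, 0.387 per Mb (0.177 to 0.735), with a median gene length of 737 kb. At the density of genes of their length they would hold 13.7. The interval lies below the value of all genes but takes in the 0.553 per Mb of all genes of 500 kb or longer. Nrxn3, a neurexin, had 2 deep peaks in 1612 kb, Ntm, encoding neurotrimin, had 2 in 969 kb, and Cntn5, a contactin, and Nlgn1, a neuroligin, had 1 each in 1271 and 911 kb.

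The 3 control lists ranged from 0 to 1.58 per Mb. Myeloid genes, of the lineage of the cells used, had 6 deep peaks in 4 of 27 genes, 1.58 per Mb (0.581 to 3.45). Of these Dock2, a Rac activator of leukocytes, had 3, between 102.0 and 335.8 kb from its 5′ end, and Dock10, another member of that family, Elmo1, a partner of Dock proteins, and Syk, a kinase of immune receptors, had 1 each. Fibroblast and extracellular matrix genes had 0 in 29 genes, with an interval of 0 to 1.33 per Mb. Long genes of broad expression had 6 in 5 of 29 genes, 0.316 per Mb (0.116 to 0.687), at a median length of 566 kb. Among them were Exoc6b, an exocyst subunit, with 2, and Smyd3, a methyltransferase, Diaph3, a formin, and Mad1l1, a spindle checkpoint protein, with 1 each. Set against genes of the same length classes, the ratio was 2.36 for the myeloid list and 0.535 for the long genes of broad expression, against 1.45 for all neuronal lists together, where single lists ran from 0.346 to 3.04. In value, the myeloid ratio was above that of 7 of the 8 neuronal lists, so a value above 1 was not seen in neuronal lists alone. It rests on 6 deep peaks, 3 of them in Dock2, against 2.54 at the density of the length classes. No interval was computed for the ratios. The myeloid density interval of 0.581 to 3.45 per Mb takes in the 0.762 of all genes, so an excess in that list is not shown. The 3 control lists together held 12 deep peaks against 15.9 at that density, a ratio of 0.755. The intervals of most lists overlap one another, so a full order among them is not shown by these counts. Those of transcription and RNA-binding factors (1.24 to 3.31) and presynaptic proteins (0.764 to 2.93) were the exceptions. They lay above synaptic adhesion (0.177 to 0.735) and long genes of broad expression (0.116 to 0.687), the lists with the longest genes. Without Rbfox3 the first interval was 0.669 to 2.4 and overlapped both. These densities are not matched for length.

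**Figure D4:**
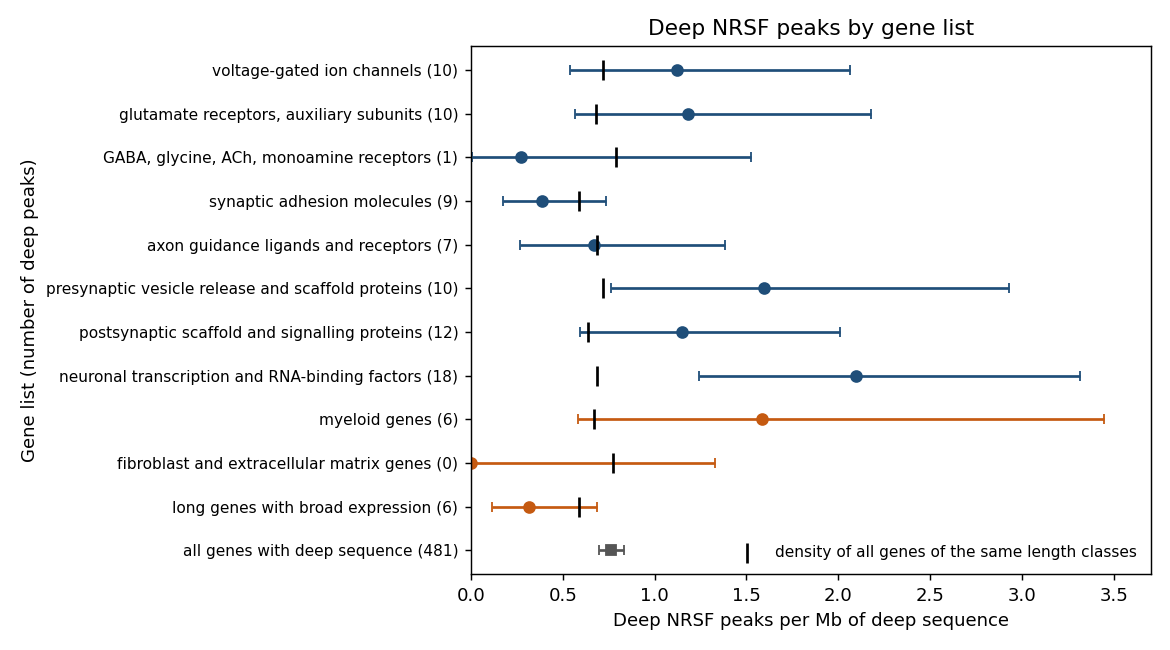
Deep NRSF peaks per Mb of deep sequence (horizontal axis) in 8 neuronal lists (blue), 3 control lists (orange) and all genes with deep sequence (grey square); bars are exact Poisson 95% intervals, numbers in brackets count deep peaks, and black ticks give the density of all genes of the same length classes. The highest value is 2.1 per Mb for transcription and RNA-binding factors, and fibroblast genes are at 0.

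Genes with a deep peak also carried a peak at one of their own ends more often than genes without one. Of the 382 hosts, 55 had a peak within 10 kb of an own end (14.4%, interval 11.03 to 18.33%), against 509 of the 8823 genes with deep sequence and no deep peak (5.77%, 5.29 to 6.28%); over all 9205 the share was 6.13%. By length class the share with and without a deep peak was 13.5 against 5.36% under 50 kb, 18.1 against 6.4% at 50 to 100 kb, 13.2 against 5.78% at 100 to 200 kb, 12.5 against 5.6% at 200 to 500 kb and 15.3 against 7.93% at 500 kb or longer. The intervals were apart only at 50 to 100 kb (10.5 to 28.0% against 5.45 to 7.46%) and overlapped in the other 4 classes. The ends of the nearest gene on either side also had peaks more often, in 50 of 382 hosts (13.1%, interval 9.87 to 16.9%) against 780 of 8823 (8.84%, 8.26 to 9.45%). Neighbours were protein-coding genes that do not overlap the host, and peaks within 10 kb of the host's span were left out. Within each length class the intervals of these neighbour shares overlapped. Pooled over length, regions rich in peaks thus move with the result at own ends, and their part in it was not tested. No test was run on these shares beyond their intervals. Without the 87 peaks in 1 Mb bins of 10 or more peaks, of which 5 were deep, the shares at own ends were 13.9 against 5.67%.

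**Figure D5:**
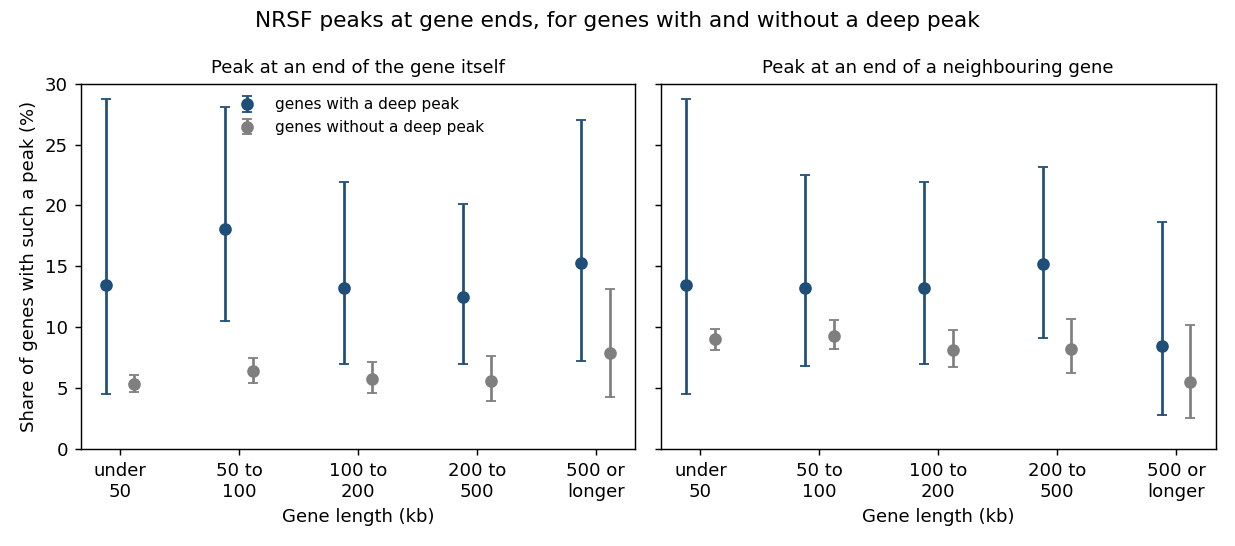
Share of genes (%) with a peak within 10 kb of an own end (left panel) or of an end of the nearest gene on either side (right panel), by gene length, for genes with a deep peak (blue) and without one (grey); bars are exact 95% intervals. In the left panel the blue values run from 12.5 to 18.1% and the grey ones from 5.36 to 7.93%.

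The members of each list with a deep peak were also counted beside those with a peak at an own end. Over all genes with deep sequence these shares were 4.15 and 6.13%. The share with a deep peak rose with gene length, from 0.851% under 50 kb to 26.5% at 500 kb or longer. The own-end share ran only from 5.36 to 7.93% over the length classes in genes without a deep peak. The lists differ in median length, from 93.3 kb for fibroblast genes to 737 kb for synaptic adhesion molecules. These counts are not matched for it. Presynaptic proteins had 9 of 30 genes with a deep peak and 7 with an end peak, transcription and RNA-binding factors 6 and 8 of 28, glutamate receptors 7 and 10 of 27, and synaptic adhesion molecules 7 and 4 of 32. Voltage-gated channels had 6 of 30 genes with a deep peak and 9 with an end peak. Receptors for GABA, glycine, acetylcholine and monoamines had 1 of 27 with a deep peak and 7 with an end peak. Postsynaptic scaffold genes had 9 of 28 with a deep peak and 3 with an end peak, and axon guidance genes 6 and 1 of 32. Of the control lists, long genes of broad expression had 5 of 29 with a deep peak and 0 with an end peak, fibroblast genes 0 and 1 of 29, and myeloid genes 4 and 4 of 27. Among the 234 neuronal genes together, 51 had a deep peak (21.8%), 49 a peak at an own end (20.9%) and 6 both. Among the 4 myeloid hosts, Dock2, Dock10 and Elmo1 had both. Differences between lists were not tested, and with counts this small none is shown.

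Deep density also varied by chromosome. Chromosome 5 had 59 deep peaks in 43 hosts, 1.46 per Mb (1.11 to 1.88), and without its hosts of 3 or more deep peaks, Dpp6 and Srrm4, it had 1.26 per Mb. Its intergenic density was 0.697 and its density at gene ends 1.39 per Mb, so on chromosome 5 deep sequence stood level with gene ends. Chromosome 7 followed with 1.4 per Mb and had no host of 3 or more. Its densities at gene ends and between genes were also high, 1.93 and 0.9 per Mb, against 1.35 and 0.493 over all chromosomes. Chromosome 11 had 1.21 per Mb, and without Rbfox3, Asic2 and Dock2, its hosts of 3 or more, 0.766. Chromosome X had 9 deep peaks, 0.304 per Mb (0.139 to 0.578), and chromosome 3 had 11, 0.344 per Mb. At gene ends and between genes chromosome X had 0.272 and 0.357 per Mb, and chromosome 3 had 1.12 and 0.284. Differences between chromosomes were not tested, and chromosome copy number in this cell line was not measured here.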

How the data were processed

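NRSF ChIP-seq was measured in 2 immunoprecipitated samples and 1 input sample of mouse RAW264.7 cells. Per the submitters' processing notes, Bowtie 0.12.8 and MACS 1.4.2 were used, with builds that include GRCm38 (mm10). The peak threshold and the joining of replicates are not stated there. The values the authors deposited are peak positions, and every start is a multiple of 5; whether they count from 0 or 1 is not stated. The dog, horse and human lists were not used here.

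Gene spans came from RefSeq GRCm38.p6 (21883 protein-coding genes placed on chromosomes), and strand and internal starts from its promoter windows. A base covered by several genes went to the longest; 2 deep peaks lay in more than 1. Rates carry exact Poisson intervals and shares Clopper-Pearson intervals. Rates were compared by exact conditional binomial tests, pairs by an exact sign test, with Benjamini-Hochberg adjustment over 5 tests; these treat peaks as independent. The density ratio and the measure of relative position were checked on simulated peaks drawn independently of one another. That check does not cover the close pairs of peaks in the real list. Genes named are hosts with 3 or more deep peaks (at most 15, of 21, ties by density; the list part of the rule adds Dock2), up to 4 members per list, and the extremes of distance and length; any other gene was named with its values known. Some members of the lists are not reported here by name. The members, lists and tests were chosen with earlier results of these data known. Software was Python 3.11.15, numpy 2.4.6, pandas 2.3.3, scipy 1.17.1 and, for figures, matplotlib 3.10.9.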

Additional observations from a re-analysis of the deposited data

How the results depend on the processing

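The alternatives gave 46 values. Of these, 42 left direction and call as reported or, where no test was run, moved by no more than 1.5 times (counts) or stayed inside the reported interval (rates and shares). The other 4 concern density by gene length, where the ratio of longer to shorter genes passed the unadjusted threshold of 0.05: 0.82 with a 5 kb reach (exact p = 0.0147), and with the limit at 500 kb 0.661, 0.685 on autosomes and 0.669 without the dense bins. The 500 kb limit was chosen after the data were seen; over all alternatives that ratio ran from 0.661 to 0.894 (exact p 0.000232 to 0.229). The number of deep peaks was 626 with a 5 kb reach, 337 with 20 kb and 579 when only ends of protein-coding genes counted. The deep to intergenic ratio ran from 1.45 to 1.77 (exact p from 2.15e-13 to 9.52e-10), and the share in the middle 33.3% from 33.5 to 36.0%. No paired analysis was possible because the 2 immunoprecipitated samples share 1 list, for which reason leaving out a replicate could not be done either. Without peak heights or read depth, weak and strong peaks count alike, and a region without a peak is not shown to be unbound.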
